A study of Mus musculus with 8 samples.

Results

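The expression of 9 haematopoietic cytokine receptor genes was examined in cultured mouse stem and progenitor cells: Kit, Flt3, Csf1r, Csf3r, Csf2ra, Csf2rb, Csf2rb2, Epor and Il6st. The genes were chosen by their symbols, as receptors for stem cell factor, FLT3 ligand, colony-stimulating factors, erythropoietin (EPO) and the IL-6 family, with earlier results of these data known, so the adjusted p-values given here place each gene within the fit of all genes and are not independent evidence. All 9 were found among the 24346 gene symbols of the deposited tables, and all 9 passed the filter on low values that left 12003 genes for testing. RNA sequencing covered 8 libraries, 2 in each of 4 groups. Wild-type bone marrow from C57BL/6 mice gave hematopoietic stem cells (HSCs), sorted on CD150+ and CD48- within LSK cells, and LSK cells themselves (lineage-negative, Sca-1+, c-Kit+), the wider population of stem cells and multipotent progenitors. Each cell type was cultured for 1 day alone or with red blood cells (RBCs), in serum-free medium that held thrombopoietin and stem cell factor in every group. The RBCs were irradiated and came from mouse blood passed through a leukocyte filter. After culture, RBCs were lysed and CD45+ cells were sorted with no further gate on Kit or lineage markers, so a library holds what the sorted cells had become after the culture. Since c-Kit protein defined both sorts, the level of Kit says nothing on how the cell types were separated.

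Cytokine receptors carry the survival, proliferation and lineage signals of blood-forming cells. Kit, Flt3 and Csf1r are receptor tyrosine kinases of class III, which dimerise on binding a dimeric ligand and phosphorylate themselves. The other members are class I cytokine receptor chains without kinase activity of their own, which signal through bound JAK kinases and STAT transcription factors. Csf3r and Epor act as homodimers. Csf2ra is the ligand-binding chain for GM-CSF and pairs with the common beta chain Csf2rb, which also serves the IL-3 and IL-5 receptors, whereas Csf2rb2 is a mouse beta chain that serves IL-3 alone. Il6st encodes gp130, the shared signalling chain of the IL-6 family. In bone marrow, Kit is characteristic of stem and progenitor cells, Flt3 of multipotent progenitors that have left the long-term stem cell pool, Csf1r of the monocyte lineage, Csf3r of the granulocyte lineage and Epor of the erythroid lineage.

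The beta chains are near copies of each other. In the annotation of GRCm38, Csf2rb2 lies on chromosome 15 from 78282507 to 78305721 on the minus strand and Csf2rb from 78325752 to 78353847 on the plus strand, 20030 bp apart. Their coding sequences, of 2634 and 2688 bases, were identical in 92.91% of the aligned columns, with 242 bases in the longest identical run, and 26.58% of the 50-base windows of Csf2rb2 occurred unchanged in Csf2rb. The stretch below, coding bases 309 to 428 of Csf2rb and 312 to 431 of Csf2rb2, is shown as an example of a stretch where the pair can be told apart. Its 22 substitutions, in capitals, are part of the 125 over the whole coding sequences, while reads from the identical runs cannot be assigned by sequence.
Csf2rb: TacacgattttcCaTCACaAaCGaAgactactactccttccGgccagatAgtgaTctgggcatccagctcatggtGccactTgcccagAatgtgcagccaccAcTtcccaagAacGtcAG
Csf2rb2: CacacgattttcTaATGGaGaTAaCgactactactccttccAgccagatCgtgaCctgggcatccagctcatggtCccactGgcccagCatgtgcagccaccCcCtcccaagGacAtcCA
The FPKM values of Csf2rb and Csf2rb2 are therefore uncertain singly, and their sum is given beside them.

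Promoters are shown for 3 members, Kit as the member with the highest FPKM, Flt3 as a progenitor receptor that was higher in LSK cells and Epor as the member that passed an adjusted p for a lower level there without RBCs. Sequences came from the RefSeq promoter table (GRCm38.p6), which held 7 of the 9 members and none for Csf1r and Csf2rb. Only bases upstream of the annotated gene start are printed, 5′ to 3′ on the strand of the gene. Capitals mark GAGGAA, a purine-rich box of the kind bound by the myeloid factor PU.1. They also mark AGATAA, the motif of the GATA factors. Both strands were searched. The motifs were chosen after the data were seen and do not overlap each other.
Kit (chr5:75574737-75574915, plus strand): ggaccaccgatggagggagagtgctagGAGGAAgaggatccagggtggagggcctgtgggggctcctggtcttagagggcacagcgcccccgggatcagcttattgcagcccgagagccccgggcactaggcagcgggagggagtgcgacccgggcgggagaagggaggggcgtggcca
Flt3 (chr5:147400490-147400739, minus strand): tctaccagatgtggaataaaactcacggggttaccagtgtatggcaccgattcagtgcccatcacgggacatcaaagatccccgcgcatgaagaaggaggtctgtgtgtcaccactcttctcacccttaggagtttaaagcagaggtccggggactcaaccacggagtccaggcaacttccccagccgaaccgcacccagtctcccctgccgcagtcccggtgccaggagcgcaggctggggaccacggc
Epor (chr9:21963577-21963826, minus strand): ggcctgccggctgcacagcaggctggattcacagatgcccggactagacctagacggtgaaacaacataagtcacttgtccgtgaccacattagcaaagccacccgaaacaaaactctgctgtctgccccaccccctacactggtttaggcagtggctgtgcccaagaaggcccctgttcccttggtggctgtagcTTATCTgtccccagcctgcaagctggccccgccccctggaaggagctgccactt
Kit held 1 GAGGAA match and Epor 1 AGATAA match, on the opposite strand, and Flt3 held neither. Counted over 250 upstream bases, 23.3% of all 32851 promoter windows in the table held GAGGAA (7639 windows). AGATAA occurred in 3281 windows, so a match by itself is common. The Kit stretch printed is shorter, at 179 bases. Over 250 bases, Csf3r and Csf2rb2 also held 1 GAGGAA match each and Csf2ra 2, and Il6st held neither motif. These matches are a description of the letters and no measurement of binding.

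The FPKM values of a library summed to between 680942 and 752107, and 14829 to 16551 genes were above 0. Absolute depth is unknown, and relative depth, read from genes with low values, ranged from 0.886 to 1.13 relative to LSK library 1 of the culture without RBCs. The labels of the cell types were checked with the gene lists. All 10 HSC genes had a negative log2 fold change and all 7 measured multipotent progenitor genes a positive one in LSK cells against HSCs without RBCs, and 9 and 7 of them passed an adjusted p under 0.05. Among the sorting genes, Cd48 was 42.7 and 40.5 FPKM in HSCs and 147 and 184 FPKM in LSK cells.

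**Figure D1:**
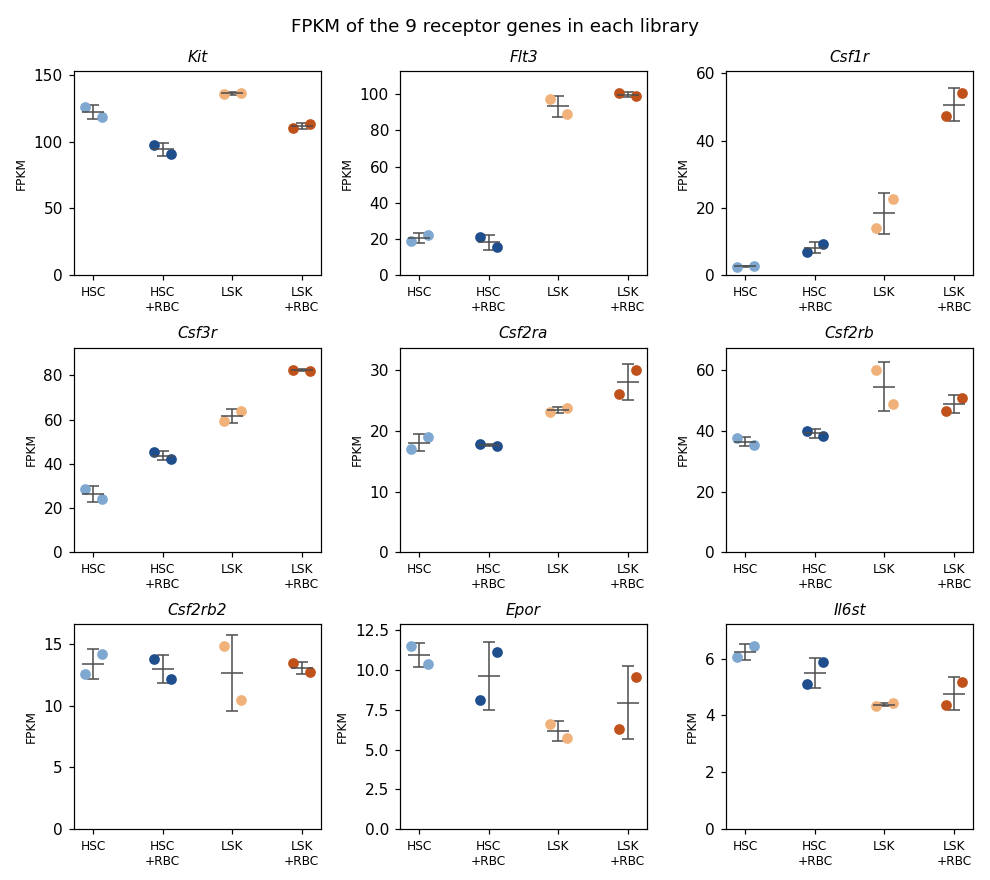
FPKM (linear axis from 0) of each of the 9 receptor genes in the 8 libraries, 2 per group, with points for libraries and a horizontal bar with whiskers for the mean and SD. Csf1r rises from 2.53 to 2.81 FPKM in HSCs to 47.2 to 54.3 FPKM in LSK cells with RBCs, Flt3 separates LSK cells from HSCs with or without RBCs, and Csf2rb2 stays between 10.5 and 14.8 FPKM.

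The first comparison asked what the receptor genes do when RBCs are present in the culture. Of the 9 genes, Csf1r passed the call in HSCs and in LSK cells, and it was higher with RBCs in both. A gene was called when its limma adjusted p lay under 0.05 and its fold change was 2-fold or more. Genes called in either direction made up 0.775% of the 12003 tested in HSCs and 1.01% in LSK cells. On adjusted p alone, Csf3r was also higher and Kit lower in HSCs, 3 of 9 genes with Csf1r against a background of 2.53%. In LSK cells, Csf1r was the 1 gene past this mark, against 3.45%. The libraries with RBCs lay wholly above or below those without for 5 of 9 genes in HSCs and 5 of 9 in LSK cells, not far from the 41.7% and 50.7% of all genes that did so. For the 9 receptors the median log2 fold change was -0.04 (HSCs) and 0.10 (LSK cells), beside -0.01 and -0.01 for all genes tested.

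Csf1r, on chromosome 18, encodes the receptor for the macrophage growth factor CSF1 and for IL-34. It measured 2.53 and 2.81 FPKM in HSCs alone and 7.07 and 9.37 FPKM in HSCs with RBCs. In LSK cells it measured 14.1 and 22.8 FPKM alone and 47.2 and 54.3 FPKM with RBCs. Both libraries with RBCs were above both without in each cell type, and no HSC library reached the lowest LSK library. The mean FPKM was 3.08 times as high with RBCs in HSCs and 2.75 times as high in LSK cells. On the log2(FPKM + 1) scale the change was 1.32 in HSCs (SE 0.207, limma adjusted p = 0.012) and 1.44 in LSK cells (SE 0.207, limma adjusted p = 0.0075). The call in HSCs was lost without the first or second HSC library alone or the second with RBCs (limma adjusted p = 0.060, 0.067 and 0.079), and that in LSK cells without either library with RBCs (0.051 and 0.078), with log2 fold changes that stayed between 1.14 and 1.54 in these fits. Of the 5774 exonic bases of Csf1r, 873 are shared with exons of Hmgxb3 on the other strand, and whether reads were assigned by strand is not given in the sources used here. Hmgxb3 measured between 8.92 and 13.0 FPKM in the 8 libraries, with group means of 9.68 FPKM in HSCs alone and 9.81 FPKM with RBCs, and of 12.5 and 11.9 FPKM in LSK cells.

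Csf3r, on chromosome 4 from 126024550 to 126044440, encodes the G-CSF receptor of the granulocyte lineage. It measured 28.8 and 23.9 FPKM in HSCs alone and 45.2 and 42.1 FPKM with RBCs, a mean 1.66 times as high. LSK cells had 59.2 and 63.7 FPKM alone and 82.6 and 81.9 FPKM with RBCs, 1.34 times as high. The 4 groups did not overlap, and they ran in the order HSCs, HSCs with RBCs, LSK cells, LSK cells with RBCs. Its log2 fold change was 0.71 in HSCs (SE 0.0960, limma adjusted p = 0.0055), under the 2-fold mark, and this p rose to 0.057 without the first HSC library with RBCs. In LSK cells it was 0.42 (SE 0.0960, limma adjusted p = 0.051), which missed the threshold and ranged from 0.023 to 0.23 over the alternatives.

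Kit, on chromosome 5 from 75574916 to 75656722, encodes the stem cell factor receptor, whose ligand was in the medium of all groups. It was the most highly expressed member per length, at 126 and 118 FPKM in HSCs alone and 97.6 and 90.8 FPKM with RBCs. LSK cells had 135 and 137 FPKM alone and 110 and 113 FPKM with RBCs. The libraries with RBCs were the lower in each cell type, with means 0.772 and 0.821 times those without. The log2 fold change was -0.37 in HSCs (SE 0.0668, limma adjusted p = 0.021) and -0.28 in LSK cells (SE 0.0668, limma adjusted p = 0.056). In HSCs the p was above 0.05 without any single HSC library, from 0.052 to 0.17, and with no mean-variance trend it was 0.10.

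**Figure D2:**
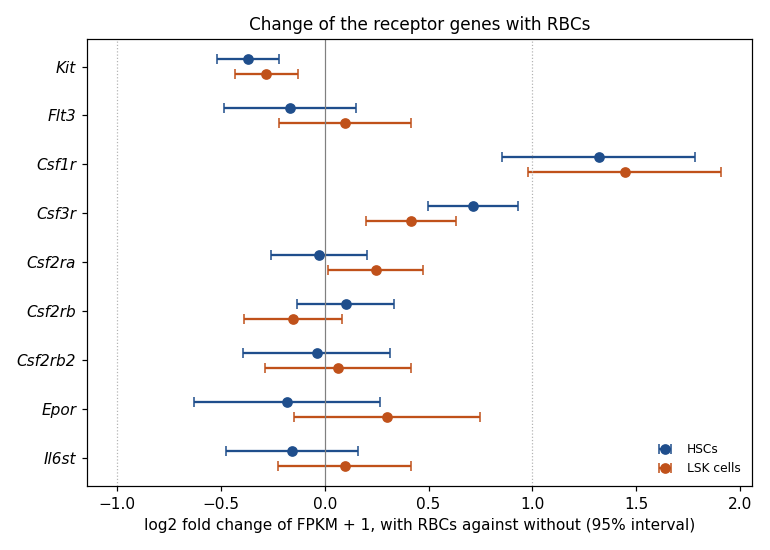
log2 fold change of FPKM + 1 with RBCs against without, for each receptor gene in HSCs (blue) and LSK cells (orange), with 95% intervals from limma and dotted lines at a 2-fold change. Csf1r lies at 1.32 and 1.44, Csf3r at 0.71 and 0.42 and Kit at -0.37 and -0.28, while the HSC intervals of the other 6 genes include 0.

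The other receptors did not pass the test with RBCs in either cell type, and the intervals show how large a change these libraries leave possible. Flt3, the FLT3 ligand receptor, measured 18.7 and 22.5 FPKM in HSCs alone and 21.3 and 15.4 FPKM with RBCs, a log2 fold change of -0.17 with a 95% interval from -0.48 to 0.15. In LSK cells it measured 97.3 and 89.1 FPKM alone and 101 and 98.7 FPKM with RBCs, 0.10 with an interval from -0.22 to 0.41. The libraries overlapped in HSCs and did not in LSK cells.

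Epor, the EPO receptor, on chromosome 9 from 21958897 to 21963506, measured 11.5 and 10.4 FPKM in HSCs alone and 8.14 and 11.1 FPKM with RBCs. In LSK cells it measured 6.63 and 5.70 FPKM alone and 6.32 and 9.57 FPKM with RBCs. The groups overlapped in both cell types, and the library pairs with RBCs were the more spread. The 95% interval of its log2 fold change ran from -0.63 to 0.27 in HSCs and from -0.15 to 0.75 in LSK cells.

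Il6st, the shared chain gp130, was expressed at a low level, at 6.05 and 6.43 FPKM in HSCs alone and 5.12 and 5.87 FPKM with RBCs. LSK cells had 4.34 and 4.43 FPKM alone and 4.36 and 5.17 FPKM with RBCs. The interval of the log2 fold change ran from -0.48 to 0.16 in HSCs and from -0.22 to 0.41 in LSK cells.

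Csf2ra, the GM-CSF binding chain, measured 17.1 and 19.0 FPKM in HSCs alone and 17.8 and 17.6 FPKM with RBCs. In LSK cells it measured 23.1 and 23.8 FPKM alone and 26.0 and 30.1 FPKM with RBCs, a log2 fold change of 0.25 (95% interval 0.02 to 0.48, limma adjusted p = 0.24). The HSC libraries with RBCs lay within the range of those without, and the LSK libraries with RBCs lay above those without.

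Csf2rb, the common beta chain, measured 37.6 and 35.4 FPKM in HSCs alone and 40.1 and 38.2 FPKM with RBCs, and 60.2 and 49.0 FPKM in LSK cells alone and 46.7 and 50.9 FPKM with RBCs. Csf2rb2, the IL-3 specific beta chain, measured 12.5 and 14.2 FPKM in HSCs alone and 13.8 and 12.2 FPKM with RBCs, and 14.8 and 10.5 FPKM in LSK cells alone and 13.4 and 12.7 FPKM with RBCs. Neither passed the test, and Csf2rb made up 71.3% to 75.8% of the sum of the pair in the HSC libraries and 77.7% to 82.4% in the LSK libraries. For the sum, the log2 fold change with RBCs was 0.06 in HSCs and -0.11 in LSK cells.

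Whether the cell types responded differently was tested by the interaction of cell type and RBCs. None of the 9 genes was called by limma, against 0.108% of all genes, none passed an adjusted p under 0.05, against 0.133%, and the number with an unadjusted p under 0.05 was 0. Csf3r came closest, with a log2 fold change 0.30 smaller in LSK cells than in HSCs (SE 0.136, unadjusted p = 0.054, limma adjusted p = 0.41). For Csf1r the difference was 0.12, with a 95% interval from -0.53 to 0.78.

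The second comparison set LSK cells against HSCs in the same culture condition. Without RBCs, 3 of 9 genes were called, Flt3, Csf1r and Csf3r, all higher in LSK cells, against 2.66% of all genes. With RBCs, 2 of 9 were called, Flt3 and Csf1r, against 3.61%. By adjusted p alone, 6 and 5 of 9 genes passed, against backgrounds of 14.2% and 24.4%. Libraries of the cell types did not overlap for 8 of 9 genes without RBCs and 6 of 9 with them, where 54.8% and 66.8% of all genes did the same. The median log2 fold change of the 9 genes was 0.36 without RBCs and 0.31 with them, beside 0.01 in both conditions for all genes. Fewer cells of a type and less RNA per cell cannot be told apart in such bulk libraries.

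Among the receptor tyrosine kinases, Flt3 and Csf1r differed by multiples and Kit by little. The mean of Flt3 was 4.52 times as high in LSK cells as in HSCs without RBCs and 5.42 times with them, or 2.13 and 2.39 on the log2 scale (SE 0.140, adjusted p from limma 3.2e-05 and 1.2e-05). Csf1r was 6.91 and 6.17 times as high, or 2.37 and 2.50 on the log2 scale (SE 0.207, adjusted p from limma 0.00014 and 9.0e-05). Kit was 1.11 and 1.19 times as high, at 0.16 and 0.24 on the log2 scale (limma adjusted p = 0.16 and 0.027), and the second p rose to between 0.058 and 0.18 without any 1 of the 4 libraries with RBCs. The levels of Flt3 in the 4 LSK libraries, 89.1 to 101 FPKM, stood apart from the 15.4 to 22.5 FPKM of the 4 HSC libraries.

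Among the class I chains, those of the granulocyte and GM-CSF receptors were higher in LSK cells, and Epor was lower. Csf3r was 2.34 times as high in LSK cells without RBCs and 1.88 times with them, or 1.20 and 0.90 on the log2 scale (adjusted p from limma 9.5e-05 and 0.00033), the second below the 2-fold mark. Csf2ra was higher by 0.36 and 0.63 on the log2 scale (limma adjusted p = 0.045 and 0.0025). The first of these p-values rose to between 0.064 and 0.18 without any 1 of the 4 libraries without RBCs, while the second stayed under 0.03 in all alternatives. Csf2rb was higher by 0.56 without RBCs (limma adjusted p = 0.0077) and by 0.31 with them, which did not pass (limma adjusted p = 0.058). The sum of Csf2rb and Csf2rb2 was higher by 0.41 without RBCs (limma adjusted p = 0.030), while the difference in Csf2rb2 alone was -0.09, with a 95% interval from -0.45 to 0.26. Epor was lower in LSK cells without RBCs, at 0.563 times the HSC mean (log2 fold change -0.74, SE 0.199, limma adjusted p = 0.038), and the p lay between 0.083 and 0.18 without any 1 of the 4 libraries of this comparison. With RBCs its libraries overlapped, at -0.26 with an interval from -0.71 to 0.19. Il6st differed by -0.43 and -0.17 on the log2 scale (adjusted p from limma 0.078 and 0.41), and its LSK libraries lay below those of HSCs in culture without RBCs.

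**Figure D3:**
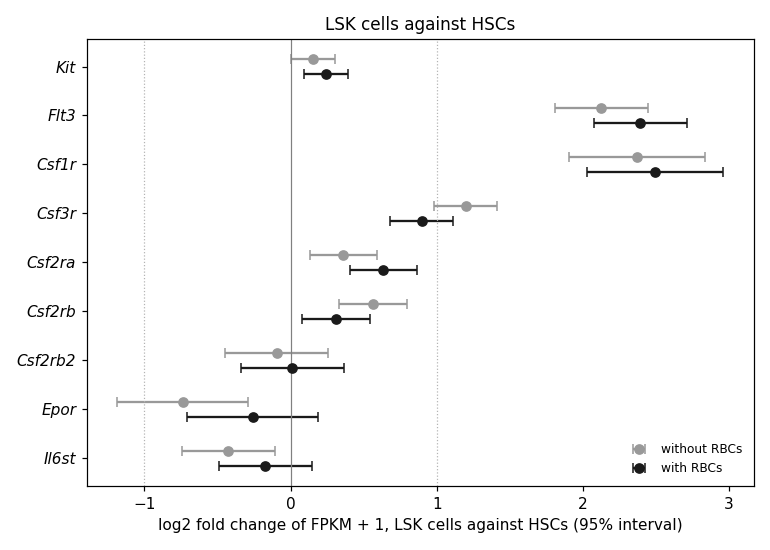
log2 fold change of FPKM + 1 in LSK cells against HSCs for each receptor gene, without RBCs (grey) and with RBCs (black), with 95% intervals from limma and dotted lines at a 2-fold change. Flt3 and Csf1r lie between 2.13 and 2.50 in both conditions, Csf3r at 1.20 and 0.90, and Epor and Il6st left of 0, at -0.74 and -0.26 and at -0.43 and -0.17.

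Some genes of myeloid cells, though not all of those listed, were higher with RBCs as Csf1r and Csf3r were, and their part in the result was not tested. Of the 10 neutrophil genes measured, 2 were called higher with RBCs in HSCs (S100a8 and S100a9) and 3 in LSK cells (Retnlg, Mmp9 and Mmp8), and none of these 10 lower. Mmp9 passed the filter on low values only through the LSK libraries with RBCs, at 3.91 and 2.92 FPKM, so its call is no separate support. In all other libraries Mmp9 was at most 0.599 FPKM. The summed FPKM of the 10 genes was 10.6 and 8.54 in HSCs alone, 254 and 46.4 with RBCs, 129 and 221 in LSK cells alone, and 572 and 365 with RBCs. In the HSC libraries with RBCs, S100a8 measured 148 and 22.3 FPKM and S100a9 87.9 and 11.8 FPKM, so this sum mostly followed these genes. Other genes of the list were equal there, as Cxcr2 (4.22 and 4.22 FPKM), or higher in the second library, as Retnlg (0.965 and 5.29 FPKM). Csf3r measured 45.2 and 42.1 FPKM in the same libraries. The 5 primary granule genes of granulocyte progenitors did not follow in HSCs, where 4 had a negative log2 fold change and Mpo, the myeloperoxidase gene, was called lower with RBCs, from 17.8 and 11.1 to 6.16 and 2.82 FPKM (-1.53, limma adjusted p = 0.021). In LSK cells, Prtn3, the proteinase 3 gene, passed the adjusted p with RBCs, from 223 and 204 to 359 and 384 FPKM (0.80, limma adjusted p = 0.00063). Summed, the granule genes were 248 and 248 FPKM in HSCs alone, 222 and 223 FPKM with RBCs, 772 and 882 FPKM in LSK cells alone and 1076 and 1083 FPKM with RBCs. The HSC sums were mostly Prtn3, at 223 and 231 FPKM alone and 208 and 216 FPKM with RBCs. Of the 9 monocyte or macrophage genes, 6 passed the filter on low values, and Itgam was called higher with RBCs in both cell types and Ccr2 in LSK cells. Itgam, an integrin chain of myeloid cells, measured 3.54 and 3.14 FPKM in HSCs alone and 22.5 and 25.9 FPKM with RBCs, and 5.85 and 7.73 FPKM in LSK cells alone and 26.5 and 28.1 FPKM with RBCs. Ccr2, a monocyte chemokine receptor, rose from 7.61 and 4.57 to 34.4 and 35.0 FPKM in LSK cells. The macrophage-defining genes Adgre1, Mrc1 and Fcgr1 were under 0.6 FPKM in all 8 libraries. The monocyte or macrophage list summed to 98.8 and 123 FPKM in HSCs alone, 132 and 141 FPKM with RBCs, 103 and 115 FPKM in LSK cells alone, and 185 and 196 FPKM with RBCs. In the HSC libraries, most of this sum came from a single gene that did not pass the adjusted p with RBCs there. Stem cell genes also moved with RBCs in HSCs, and their part in the result was not tested. All 10 HSC genes had a negative log2 fold change, with a median of -0.26, and Procr (-0.52, limma adjusted p = 0.015) and Ifitm1 (-0.67, limma adjusted p = 0.041) passed the adjusted p. Slamf1, the gene of CD150, measured 10.2 and 10.7 FPKM alone and 5.50 and 6.59 FPKM with RBCs (-0.70, limma adjusted p = 0.060). Of the 7 multipotent progenitor genes, Cd34 rose from 324 and 316 to 476 and 455 FPKM (0.54, limma adjusted p = 0.0028), and Cd48, which the sort had selected against, fell from 42.7 and 40.5 to 16.0 and 22.8 FPKM (-1.08, limma adjusted p = 0.0069). In LSK cells, 4 of the 10 HSC genes had a positive log2 fold change and 6 a negative one, with a median of -0.14, and Ifitm1 alone passed (-0.64, limma adjusted p = 0.044). Of other cell types, 1 of 7 mast cell and basophil genes was called with RBCs in HSCs (Fcer1a, lower) and 1 of 6 megakaryocyte genes in LSK cells (Pf4, lower).

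**Figure D4:**
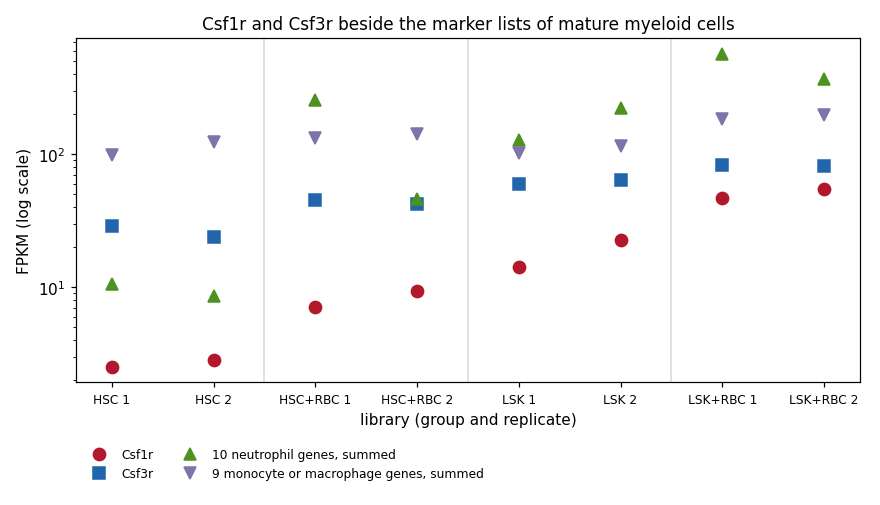
FPKM (log axis) of Csf1r (circles), Csf3r (squares) and the summed FPKM of 10 neutrophil genes (upward triangles) and 9 monocyte or macrophage genes (downward triangles) in each of the 8 libraries. In the first and second HSC libraries with RBCs, the neutrophil sum is 254 and 46.4, Csf1r is 7.07 and 9.37 and Csf3r is 45.2 and 42.1.

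RBC genes can enter these libraries with the added cells and bear on Epor as the erythroid receptor, and their part in the result was not tested. Hemoglobin genes are near copies of each other, so their single values are uncertain, and they did not move together. Of the 8 RBC genes tested, 3 were called higher in HSCs (Hba-a1, Hbb-b1 and Alas2) and 1 in LSK cells (Hba-a1). Hba-a1 went from 0.0826 and 1.40 to 116 and 88.7 FPKM in HSCs and from 0.864 and 1.53 to 32.9 and 43.1 FPKM in LSK cells. Hbb-b1 went from 1.93 and 1.94 to 65.1 and 31.0 FPKM in HSCs, while in LSK cells it measured 0.907 and 2.12 FPKM alone and 0.0438 and 0.0145 FPKM with RBCs. Hbb-b2, the most abundant globin gene of the list, measured 279 and 335 FPKM in HSCs alone and 120 and 158 FPKM with RBCs (-1.14, limma adjusted p = 0.16), and 109 and 173 FPKM in LSK cells alone and 128 and 54.1 FPKM with RBCs. The 9 RBC genes measured summed to 301 and 357 FPKM in HSCs alone and to 335 and 327 FPKM with RBCs, and to between 132 and 198 FPKM in the LSK libraries. Of 8 early erythroid genes, 4 passed the filter and 0 were called by limma with RBCs in either cell type (1 in HSCs and 2 in LSK cells at an unadjusted p under 0.05), and their list summed to 26.0 and 26.2 FPKM in HSCs alone and to 30.4 and 39.4 FPKM with RBCs.

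Around the 9 receptors, 5 lists of the same signalling system held 62 tested genes. With RBCs, 1 of them was called in HSCs (1.61%) and 1 in LSK cells (1.61%), and by adjusted p alone 4 passed in each cell type (6.45%), beside 2.53% and 3.45% of all genes. Of 8 partner chains that pair with the beta chains or gp130, 4 passed the filter and 0 were called by limma in either cell type (0 in HSCs and 3 in LSK cells at an unadjusted p under 0.05), with median log2 fold changes of -0.09 in HSCs and -0.14 in LSK cells. Il6ra, the IL-6 binding chain that pairs with gp130, measured 1.90 and 1.11 FPKM in HSCs alone and 1.29 and 2.49 FPKM with RBCs, against 3.35 and 3.90 FPKM in LSK cells alone and 5.62 and 5.74 FPKM with RBCs. It was called higher in LSK cells than in HSCs with RBCs (log2 fold change 1.24, limma adjusted p = 0.0052). Without RBCs that difference was 0.90 (limma adjusted p = 0.032), under the 2-fold mark.

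Of 18 other cytokine receptor chains and class III receptor kinases, 12 were tested. Lepr, the leptin receptor, measured 1.58 and 1.82 FPKM in HSCs alone and 4.56 and 6.22 FPKM with RBCs, and was called higher (log2 fold change 1.23, limma adjusted p = 0.0098). In LSK cells it measured 0.380 and 0.299 FPKM alone and 1.83 and 1.53 FPKM with RBCs (0.998, limma adjusted p = 0.022), just under the 2-fold mark. Il4ra, a chain of the IL-4 and IL-13 receptors, passed the adjusted p in both cell types, with log2 fold changes of 0.66 and 0.45. Between the cell types without RBCs, Il7r, the lymphoid IL-7 receptor chain, and Pdgfrb, a class III kinase, were called higher in LSK cells (1.97 and 1.63) and Lepr lower (-1.01), and the same 3 genes were called with RBCs (2.34, 1.63 and -1.25). Il7r passed the filter on low values only through the LSK libraries, at 2.59 to 5.16 FPKM, and was at most 0.0902 FPKM in the HSC libraries. The list's median log2 fold change was -0.10 in HSCs and 0.07 in LSK cells with RBCs.

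The ligands of these receptors were low or at 0 in the sorted cells, with exceptions. Of 18 ligand genes, 9 passed the filter and 0 were called by limma in any comparison (with RBCs, 2 in HSCs and 4 in LSK cells at an unadjusted p under 0.05), with medians of 0.03 in HSCs and 0.12 in LSK cells with RBCs. Flt3l, the ligand of Flt3, measured between 11.1 and 17.1 FPKM over the 8 libraries, whereas Kitl, the ligand of Kit, was under 0.07 FPKM in each library, and Epo and Il3 were listed at 0 in all 8. Csf1, a ligand of Csf1r, measured between 0.432 and 1.47 FPKM. Ebi3, a subunit of IL-27 and IL-35, was the highest ligand gene, at 64.3 and 68.0 FPKM in HSCs alone and 44.5 and 44.3 FPKM with RBCs (log2 fold change -0.56, limma adjusted p = 0.011).

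Below the receptors, 18 of 19 kinases, STATs and adaptors were tested and 0 were called by limma with RBCs in either cell type (2 in HSCs and 4 in LSK cells at an unadjusted p under 0.05), with medians of 0.08 in HSCs and 0.05 in LSK cells. Stat3, a transcription factor that gp130 and the G-CSF receptor activate, passed the adjusted p in LSK cells, from 69.1 and 72.0 to 89.4 and 88.9 FPKM (log2 fold change 0.33, limma adjusted p = 0.032), and had 0.14 in HSCs (limma adjusted p = 0.41). All 19 negative regulators were tested. Socs3, an inhibitor of gp130 and G-CSF receptor signalling, was called higher in LSK cells with RBCs, from 7.93 and 9.90 to 24.1 and 28.9 FPKM (1.47, limma adjusted p = 0.00069). In HSCs it measured 6.83 and 6.76 FPKM alone and 12.4 and 12.3 FPKM with RBCs (0.77, limma adjusted p = 0.018), under the 2-fold mark, and the difference between the effects did not pass (0.70, limma adjusted p = 0.21). With RBCs, Socs3 was called higher in LSK cells than in HSCs (1.04, limma adjusted p = 0.00088). Socs2 and Dok2, inhibitors of JAK-STAT and of kinase signalling, were called lower in LSK cells than in HSCs without RBCs (-1.24 and -1.06) and with them (-1.08 and -1.29). The median of the regulators was 0.03 in HSCs and 0.00 in LSK cells with RBCs.

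For the 3 receptors with the widest range of group means, the genes whose log2(FPKM + 1) ran most closely with them over the 8 libraries were listed, as a description of libraries that fall into 4 groups. Closest to Csf1r were Arl11 (Pearson r = 0.997), Znrf1 (0.994) and Rasa4 (0.992). Closest to Flt3 were Slc26a11 (0.999), Plek (0.996) and Cdkn1a (0.995). Closest to Csf3r were Fam46a (0.994), Spi1 (0.994), which encodes PU.1, and Slc35d3 (0.991). Spi1 measured 70.3 and 63.2 FPKM in HSCs alone, 88.8 and 84.1 FPKM with RBCs, 98.9 and 97.3 FPKM in LSK cells alone and 117 and 119 FPKM with RBCs. The groups ran in the same order as for Csf3r, which follows from the choice by correlation. A link between these genes was not tested.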

How the data were processed

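Groups came from the sample titles. FPKM values by gene symbol were deposited by the authors, 1 table per library, with replicates not pooled. Full-length cDNA (SMART-Seq HT) and Nextera XT libraries of sorted CD45+ cells were sequenced on an Illumina HiSeq instrument. The submitters' processing notes name TopHat2 2.1.1, Bowtie2 2.2.8, SAMtools 0.1.18, Cuffdiff 2.2.1 and mm10, without roles. The annotation and strand setting are not given in the sources used here.

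The values, as log2(FPKM + 1), were fitted with limma 3.58.1 in R 4.3.3 for genes that reached an FPKM of 1 in 2 or more libraries, with 4 group means, a mean-variance trend and no replicate block (4 residual and 5.18 prior degrees of freedom). A gene was called at a Benjamini-Hochberg adjusted p below 0.05, over all 12003 genes, together with a 2-fold or larger change. Fold changes on this scale understate those of low genes. Whether replicates are separate animals is not stated, so p-values measure the spread between libraries, which may be technical. Exact permutation of 2 against 2 cannot go below a two-sided p of 0.333. Contrasts share libraries: LSK cells and HSCs without RBCs serve as the reference of several.

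Absolute depth is unknown. Of 3164 genes that averaged less than 1 FPKM and were above 0 in 5 or more libraries, 69.85% had values that were whole multiples of 1 step within 0.05 of a read, which gave relative depth only. Positions and coding sequences came from GENCODE M21 (GRCm38) and promoters from RefSeq, and Csf2rb and Csf2rb2 were aligned with Biopython 1.88. The members and gene lists were chosen with earlier results of these data known. All 9 members were named. Of the 5 signalling lists, the genes called were named, at most 4 per list and comparison, with some that passed the adjusted p alone. Marker genes were named mainly where they changed with RBCs, with some that did not, and the 3 genes most alike were found for the 3 members with the widest range. Kitl, Flt3l, Csf1, Il6, Epo and Il3 were named after their values were seen. The procedure was tested on simulated data. Alternatives covered the pseudocount, the filter, scaling, the trend, the samples in the fit, the fold threshold, a replicate block, the sum of Csf2rb and Csf2rb2 and the omission of each library. One gene of the monocyte or macrophage list is not reported here.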

Additional observations from a re-analysis of the deposited data

Results flagged for a closer look

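The change with RBCs differed between LSK cells and HSCs for 2 marker genes, by the interaction term of the fit across all genes. For Hbb-b1, a beta globin gene, the log2 fold change in LSK cells minus that in HSCs was -5.21 (SE 0.462, limma adjusted p = 0.0031), from changes of 3.97 in HSCs and -1.25 in LSK cells. Its near copy Hbb-bs went the other way in LSK cells, from 0.00522 and 0.172 FPKM alone to 18.9 and 19.4 FPKM with RBCs. In HSCs, Hbb-bs measured 0.0123 and 0.0386 FPKM alone and 0.00753 and 19.1 FPKM with RBCs. Single values of such near copies are uncertain, so the Hbb-b1 difference does not describe beta globin as a whole. For Prtn3, a primary granule gene, the difference was 0.891 (SE 0.0968, limma adjusted p = 0.0093), from changes of -0.10 in HSCs and 0.80 in LSK cells. Both LSK libraries with RBCs lay above both without for Prtn3 and below for Hbb-b1, and both HSC libraries with RBCs lay above for Hbb-b1. None of the 9 receptors passed this test.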

How the results depend on the processing

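With no fold threshold, 3 of the 9 receptors were called for the RBC effect on HSCs, where the share of all genes was 2.53%. For the RBC effect on LSK cells the count was 1, beside a share of 3.45%. The interaction had 0, beside 0.133%. Between the cell types the count was 6 without RBCs (14.2% of all genes) and 5 with them (24.4%). Receptor counts under the other alternatives are given without such a share, so they describe the receptors alone. When every gene above 0 in any library was tested, 0 were called with RBCs in HSCs and 0 in LSK cells (Csf1r adjusted p = 0.085 and 0.056 from limma), and with a pseudocount of 5, 0 in HSCs. The cause was not tested. Leaving out 1 library at a time, the number called ranged from 0 to 1 in HSCs and from 0 to 1 in LSK cells. The fit of the contrast's own groups alone was not run for the interaction, which needs all 4 groups.

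Receptors with small differences changed sign. The Csf1r interaction was -0.0848 with a pseudocount of 0.1. The sum of Csf2rb and Csf2rb2 is another quantity than Csf2rb2 alone, and Csf2rb made up 71.3% to 82.4% of it. The log2 fold change of the sum was 0.0633 in HSCs and -0.11 in LSK cells with RBCs. It was -0.17 for the interaction and 0.41 for LSK cells against HSCs without RBCs. These signs were those of Csf2rb alone and not of Csf2rb2 alone. With RBCs, the log2 fold change of Csf2rb2 between the cell types was -0.0514 under quantile normalization and -0.0051 under upper quartile scaling. The cause of these changes was not tested. Without 1 library, the Csf1r interaction ranged from -0.20 to 0.45, Csf2ra in HSCs from -0.10 to 0.0458, Flt3 in HSCs from -0.39 to 0.0524, Epor in HSCs from -0.39 to 0.0241, Il6st in LSK cells from -0.0073 to 0.20 and Epor between the cell types with RBCs from -0.52 to 0.0044. Csf2rb2 ranged from -0.12 to 0.0450 in HSCs, -0.17 to 0.30 in LSK cells, -0.13 to 0.34 for the interaction, and -0.33 to 0.14 and -0.0728 to 0.0940 between the cell types without and with RBCs.

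Replicate numbers are shared between groups, but no label pairs the libraries, and the deviations of same-numbered libraries correlated between -0.067 and 0.0954. With the replicate block, the number of receptors called was 1 in HSCs, 1 in LSK cells, 0 for the interaction, and 3 and 2 between the cell types without and with RBCs, as without it. By adjusted p alone, that of Csf2ra between the cell types without RBCs was 0.051 with the block.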
